A study of Akebia trifoliata with 9 samples.

Results

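In leaves of Akebia trifoliata, 124 of 82321 assembled genes differed in the same direction at each of 2 successive steps, from untreated plants to plants under simulated acid rain and from there to plants given curcumin under the same acid rain. Of these, 82 were rising ids, lowest in Control and highest in CUR50, and 42 were falling ids, highest in Control and lowest in CUR50. The members were chosen on the values of all 9 libraries: the ratio of group mean TPM + 1 had to be at least 1.5 in each step and in 1 direction, the values of neighbouring groups could not overlap, and the highest group needed a mean of at least 5 TPM, which 16532 ids reached. TPM is a length-corrected measure of how much of a library's RNA a gene makes up. The direction and size of both steps are therefore what chose these ids, and they are described here without a test.

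Each group had 3 libraries, made after 28 days of treatment. In Control, both the roots and the leaves received distilled water. In CUR0, the leaves were wetted with artificial acid rain at pH 2.0 and the roots were given no curcumin. In CUR50, the leaves had the same spray and the roots were given curcumin at 50 µmol/L. The first step is thus acid rain against distilled water, and the second is curcumin against none under acid rain. No group had curcumin without acid rain, so an effect of curcumin alone and one that needs acid rain cannot be told apart. The labels give 4 plants for 3 replicates per treatment, so how plants map to libraries is unclear, and the spread between libraries may be partly technical. The solvent of the curcumin is not given in the sources used here.

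Acid rain wets the leaf surface with strong acid, which damages cuticle and epidermis, acidifies the apoplast and raises reactive oxygen species in leaf tissue. Curcumin is the yellow polyphenol of turmeric, an antioxidant whose phenol groups can quench radicals. A transcript that moves the same way in both steps is one where curcumin-treated stressed leaves lie further from untreated leaves than stressed leaves do, as opposed to one that returns toward the untreated level. The ids have the format of Trinity, a program that assembles transcripts from reads, and none of the 82321 matched any of the 32005 genes of the reference table of assembly ASM1797944v1. What the members encode is not stated here, leaf markers and pathway lists could not be checked by name, and only 4 ids are printed. In bulk leaf RNA, a change in the share of a cell type and a change in RNA per cell cannot be told apart.

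Among the libraries, the spread between replicates was widest in CUR50. Over all ids with at least 5 TPM in the highest group, the SD of log2(TPM + 1) had a median of 0.12 within Control, 0.15 within CUR0 and 0.24 within CUR50. The rising ids had medians of 0.20, 0.27 and 0.39, and the falling ids had medians of 0.24, 0.19 and 0.50. These SDs use unscaled TPM. The median-of-ratios scaling factors ran from 1.02 to 1.05 in Control, 0.883 to 1.02 in CUR0 and 0.944 to 1.12 in CUR50. Whether the order of the groups holds after scaling was not tested. The 31754 ids that reached 1 TPM in 3 or more libraries had a median difference of -0.09 in log2(TPM + 1) for CUR0 against Control and 0.12 for CUR50 against CUR0. An id at 0.12 in the second step is therefore at the level of the median id. No columns were identical, and the sequencing depth behind TPM values is unknown.

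**Figure D1:**
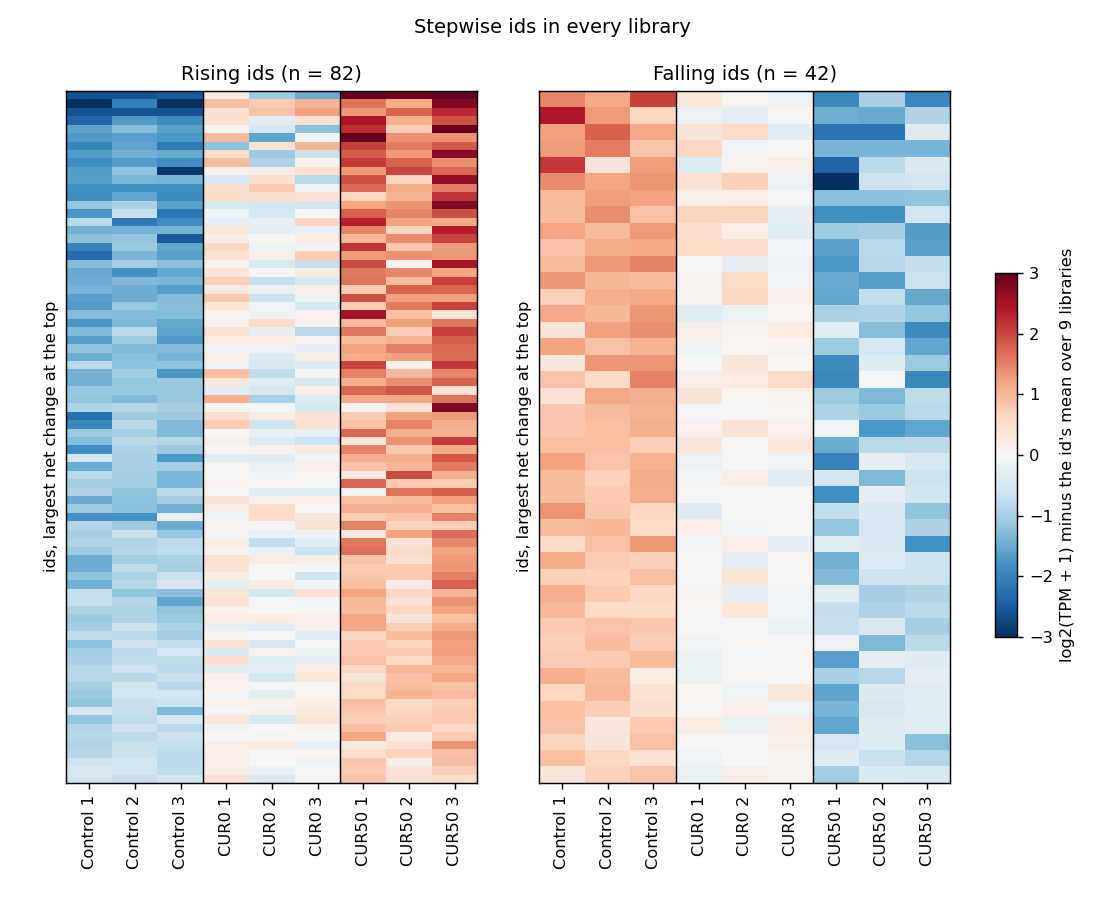
Each row is 1 stepwise id and each column 1 library, and colour gives log2(TPM + 1) minus the id's mean over the 9 libraries, with the scale ending at -3 and 3. The 82 rising ids go from blue in Control to red in CUR50 and the 42 falling ids the other way, as the rule requires, and colours differ most between replicates in the CUR50 columns.

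The 82 rising ids were mostly low in untreated leaves. The group means had a median over ids of 2.78 TPM in Control, against 6.84 TPM under acid rain and 20.9 TPM with curcumin added. In 18 of them all 3 Control libraries were under 1 TPM, and 5 were listed at 0 in all 3. The CUR0 libraries of those 5 ids ran from 0.57 to 13.48 TPM and their CUR50 libraries from 1.97 to 28.78 TPM. In CUR50, 43 of the 82 ids had a mean of at least 20 TPM, 8 at least 100 TPM and 3 at least 500 TPM. The rising list thus ranged from transcripts hardly seen in untreated leaves to a few that were abundant in all groups.

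TRINITY_DN6788_c0_g1 was the most abundant rising id. It stood at 299.2, 351.44 and 312.62 TPM in the Control libraries, at 950.88, 631.69 and 951.76 TPM in CUR0 and at 1782.44, 1939.91 and 2640.43 TPM in CUR50. Every CUR0 library lay above every Control library, and every CUR50 library lay above every CUR0 library. The group means were 321 ± 27, 845 ± 185 and 2121 ± 457 TPM (SD, n = 3), with differences in log2(TPM + 1) of 1.37 ± 0.20 (SE) in the first step and 1.33 ± 0.20 in the second. Here and for the other printed ids, the SE rests on 1 spread estimate from all 9 libraries. It is therefore the same in both steps and does not show how the spread differs between groups. The 2 steps of this id were nearly equal on the log scale. It is the only id of its assembly cluster, the set of similar sequences that Trinity groups together.

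The next most abundant rising ids were also alone in their clusters. One was at 200 ± 48 TPM in Control, 454 ± 90 TPM in CUR0 and 819 ± 176 TPM in CUR50 (SD, n = 3). The other was at 71.7 ± 37.2, 296 ± 45 and 798 ± 204 TPM. Together with TRINITY_DN6788_c0_g1, these ids held 56.5% of the TPM of the rising list in Control, 57.5% in CUR0 and 57.9% in CUR50. The share of these 3 ids in the list was thus about the same in all groups.

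TRINITY_DN5891_c0_g1 was the rising id whose smaller step was largest. It stood at 0.15, 0.16 and 0.23 TPM in Control, at 7.26, 2.36 and 1.51 TPM in CUR0 and at 63.94, 52.18 and 110.75 TPM in CUR50. It went from barely above 0 in untreated leaves to the 16th place among the rising ids by level in CUR50. The difference in log2(TPM + 1) was 1.80 ± 0.43 (SE) for CUR0 against Control and 4.15 ± 0.43 for CUR50 against CUR0. With a pseudocount of 0.1 in place of 1 TPM, the first step went from 2.00 to 3.77 as a log2 ratio of group means, and the second from 4.02 to 4.31. The size of the first step therefore depends on the pseudocount, since Control is close to 0.

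**Figure D2:**
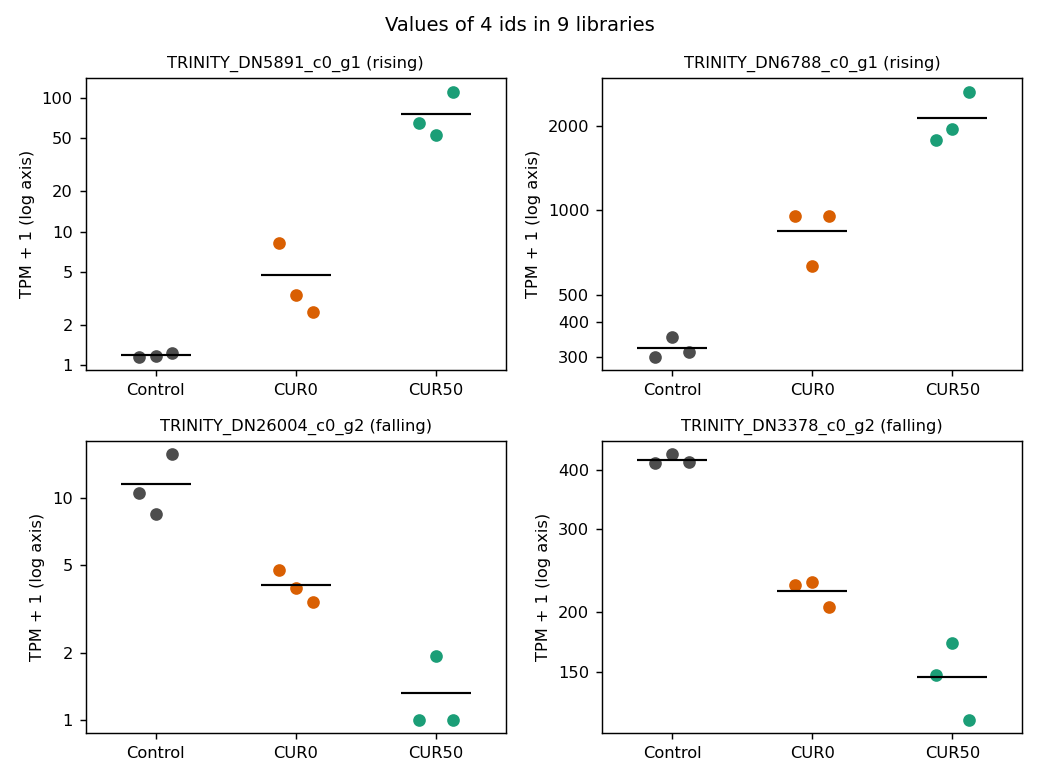
The vertical axes give TPM + 1 on a log scale for 4 ids, with 1 dot per library and a line at the group mean plus 1. In each panel the 3 groups of dots do not overlap, and TRINITY_DN5891_c0_g1 spans the widest range, from 0.15 to 110.75 TPM.

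The rising ids differed in which step was larger. The median ratio of mean TPM + 1 was 2.26 in the first step and 2.20 in the second, and 5.41 from Control to CUR50. The first step was the larger one in 44 of 82 ids and the second in 38, and the steps lay within 0.25 of each other on the log2 scale in 23. With a pseudocount of 0.1 TPM the first step was the larger one in 53 ids and the second in 29, so this balance depends on the pseudocount. The first step exceeded the second by over 1 on the log2 scale in 6 ids. One of them stood at 3.90 ± 2.21 TPM in untreated leaves, 57.3 ± 5.0 TPM in CUR0 and 124 ± 77 TPM in CUR50 (SD, n = 3), a ratio of 11.9 and then 2.14. The second step exceeded the first by over 1 in 5 ids. One of those was at 3.03 ± 0.88 TPM in Control, 5.45 ± 0.07 TPM in CUR0 and 35.4 ± 24.3 TPM in CUR50, a ratio of 1.60 and then 5.64. Both steps reached a ratio of 2 in 34 of the 82 ids, and the ratio from Control to CUR50 reached 10 in 11.

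The 42 falling ids started from moderate levels and ended low. Over these ids, the median group mean was 12.8 TPM in Control, against 5.43 TPM under acid rain and 3.03 TPM with curcumin added. In Control, 14 had a mean of at least 20 TPM, 4 at least 100 TPM and 0 reached 500 TPM. In CUR50, 1 was listed at 0 in all 3 libraries, 11 were listed at 0 in at least 1 library, and 5 were under 1 TPM in all 3. Values this low leave little room below them, and adding 1 TPM to the means compresses the ratios.

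TRINITY_DN3378_c0_g2 was the most abundant falling id. It stood at 412.24, 430.05 and 413.73 TPM in Control, at 227.6, 231.2 and 204.76 TPM in CUR0 and at 146.34, 171.68 and 117.81 TPM in CUR50. The libraries of a group lay close together, and the groups did not overlap. The means were 419 ± 10, 221 ± 14 and 145 ± 27 TPM (SD, n = 3). The difference in log2(TPM + 1) was -0.92 ± 0.13 (SE) in the first step and -0.62 ± 0.13 in the second. This id held 30.2% of the TPM of the falling list in Control and 35.9% in CUR50. Its assembly cluster holds 4 ids, among which reads may have been divided.

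TRINITY_DN26004_c0_g2 was the falling id whose smaller step was largest. Its values were 9.58, 7.46 and 14.76 TPM in Control and 3.75, 2.95 and 2.4 TPM in CUR0. In CUR50 it was listed at 0 in replicates 1 and 3 and at 0.94 TPM in replicate 2. The transcript was thus near the lower end of what the table holds in CUR50. The difference in log2(TPM + 1) was -1.49 ± 0.33 (SE) in the first step and -1.68 ± 0.33 in the second. With a pseudocount of 0.1 TPM, the log2 ratio of group means went from -1.52 to -1.77 in the first step and from -1.62 to -2.92 in the second. The size of its second step therefore depends on the pseudocount. Its cluster holds 3 ids.

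With 1 TPM added to the means, the falling ids had smaller steps than the rising ids. The median ratio of mean TPM + 1, earlier over later group, was 1.88 in the first step, 1.89 in the second and 3.60 from Control to CUR50. The second step was the larger one in 25 of 42 ids and the first in 17. The steps lay within 0.25 of each other in 16 ids, and 1 id had steps that differed by over 1 on the log2 scale. Both steps reached a ratio of 2 in 6 of the 42 ids. With 0.1 TPM added instead, an alternative added after seeing the data, the median ratio from Control to CUR50 was 4.32 for the falling and 7.19 for the rising ids. The steps then differed by over 1 in 9 of 42 falling and 22 of 82 rising ids. How even the steps are thus depends on the pseudocount.

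**Figure D3:**
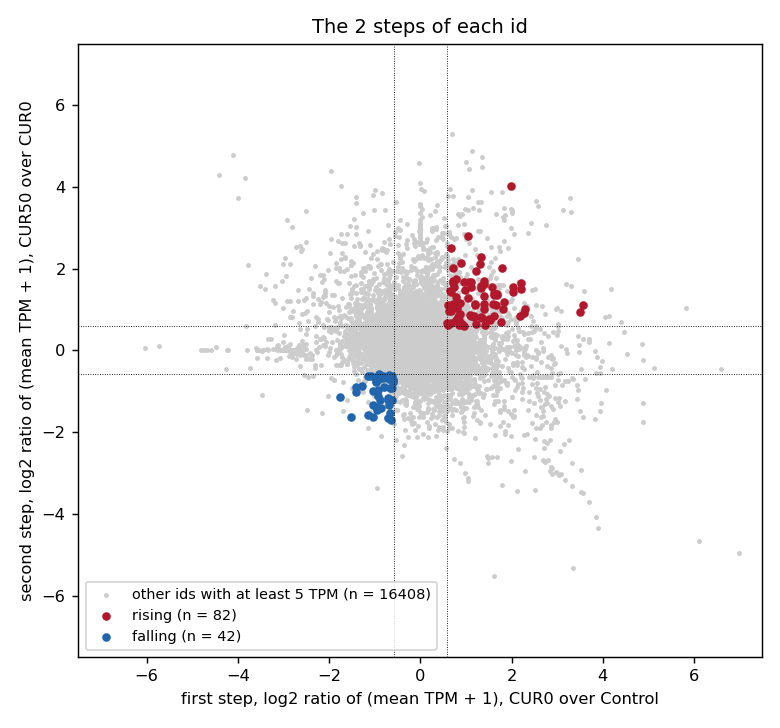
Each point is an id with at least 5 TPM in its highest group, placed by the log2 ratio of mean TPM + 1 for CUR0 over Control (horizontal) and CUR50 over CUR0 (vertical), and dotted lines mark a ratio of 1.5. The 82 rising and 42 falling ids are coloured, and grey points in the same corners are ids whose neighbouring groups overlap.

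Several ids lay just outside the limits of the rule. The rising member nearest the step limit had ratios of 1.504 and 1.58, and the nearest id outside it had 1.49 and 5.85. The falling member nearest to it had 1.87 and 1.501, and the nearest outside had 1.49 and 2.19. The lowest rising member had 5.13 TPM in CUR50 and the nearest id outside 4.67 TPM. The lowest falling member had 5.28 TPM in Control and the nearest outside 4.87 TPM. Overlap between neighbouring groups alone kept out 322 rising and 64 falling ids, more than the members themselves. The step size alone kept out 246 rising and 219 falling ids whose steps both went in the direction. The 5 TPM minimum alone kept out 13 and 11.

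The stepwise ids were a minor part of the ids that differed between Control and CUR50. Ratios of 1.5 in each step give at least 2.25 from Control to CUR50, and 814 ids were higher in CUR50 by that ratio, without overlap with Control and with at least 5 TPM in the highest group. The 82 rising ids were 10.1% of them. Another 241 (29.6%) made both steps but with overlap between neighbours, 226 (27.8%) made the first step only, and 224 (27.5%) made the second only. Downward, 532 ids met the same conditions, and the 42 falling ids were 7.89% of them. Here 313 (58.8%) made the first step only and 96 (18.0%) the second only. After median-of-ratios scaling, an alternative added after seeing the data, 264 of 771 ids higher in CUR50 (34.2%) made the first step only and 173 (22.4%) the second only. Downward these were 292 (53.9%) and 127 (23.4%) of 542 ids. In both forms, more of the ids lower in CUR50 made only the first step than only the second, while the near-even division of the higher ids was not seen after this scaling. These comparisons share libraries, and the counts describe the table.

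Summed over the list, the rising ids took a larger share of leaf transcripts at each step. They held 937, 1213 and 997 TPM in the Control libraries, 3149, 2307 and 2863 TPM in CUR0 and 5830, 5799 and 7739 TPM in CUR50. As a share of each group's TPM this is 0.105%, 0.277% and 0.646%. Without the 4 most abundant ids the other 78 held 398 to 476 TPM in Control, 911 to 1265 TPM in CUR0 and 1965 to 3088 TPM in CUR50. The falling ids held 1407, 1360 and 1394 TPM in Control, 709, 773 and 708 TPM in CUR0 and 381, 456 and 376 TPM in CUR50. The groups do not overlap in any of these sums, as follows from the rule.

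**Figure D4:**
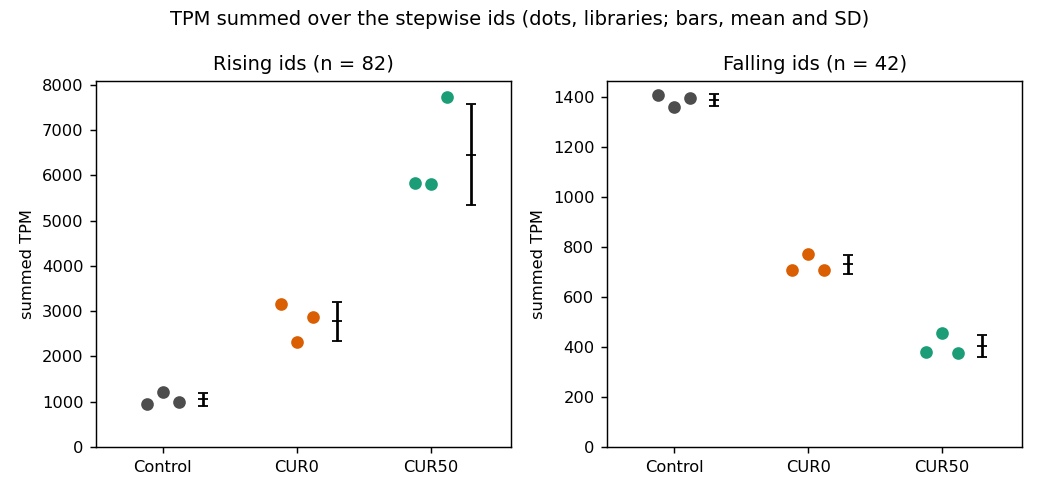
The vertical axes give TPM summed over the 82 rising ids (left) and the 42 falling ids (right), with dots for libraries and bars for the mean and SD of 3 libraries. The rising sum goes from 937 to 1213 TPM in Control up to 5799 to 7739 TPM in CUR50, and the falling sum from 1360 to 1407 TPM down to 376 to 456 TPM.

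The CUR50 libraries did not contribute alike to the rising ids. CUR50 replicate 3 was the highest of its group in 46 of 82 rising ids (56.1%), against 47.4% of all ids with at least 5 TPM. CUR50 replicate 2 was the lowest in 42 (51.2%), against 26.0% of all such ids. CUR50 replicate 1 was the lowest in 31 (37.8%), against 55.8%. Rising ids were thus more often lowest in replicate 2, while the table as a whole was most often lowest in replicate 1. These counts use unscaled TPM. The median-of-ratios factors of CUR50 replicates 1, 2 and 3 were 0.944, 1.11 and 1.12, and whether the contrast with all ids holds after scaling was not tested. Among the falling ids, replicate 1 alone was the lowest in 17 of 42 (40.5%), against 55.8% of all ids. Ties were not counted, and replicate 1 was among the lowest in every tie of the falling ids, most of them at 0. The lower share of replicate 1 is therefore not read as a difference from all ids. Replicate 2 was the highest in 18 falling ids (42.9%), against 31.8%. In CUR0 the rising ids were highest in replicate 1 in 47 of 82 (57.3%), close to the 58.0% of all ids.

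To read a library that had no part in the choice, the rule was applied to 8 libraries and the value in the remaining one was looked up. A value was in place if it lay beyond all libraries of the neighbouring group in the expected direction, or, for CUR0, between both neighbours. With a Control library left out, 83.3% to 94.1% of the rising ids so chosen were in place in it, against 23.4% to 26.5% of all ids with at least 5 TPM. With a CUR0 library left out, 62.7% to 86.3% were in place, against 5.14% to 7.57%. After median-of-ratios scaling, an alternative added after seeing the data, the Control shares were 87.1% to 95.1%, against 36.3% to 37.1% of all ids. The neighbouring libraries that set the place took part in the choice, so these shares are descriptions of the table and not an independent check.

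Rising ids were less often in place in a left-out CUR50 library than in a left-out Control library. Without CUR50 replicate 3, 72 of 93 rising ids (77.4%) were in place in it, against 59.9% of all ids. Without replicate 1 this was 78 of 149 (52.3%), against 39.0%. Without replicate 2 the rule chose 214 rising ids, and only 86 (40.2%) lay above all CUR0 libraries in replicate 2, a smaller share than the 54.5% of all ids. After median-of-ratios scaling, the shares were 75.3% and 41.7% for replicate 3 and 64.6% and 43.0% for replicate 1. For replicate 2 they were 34.6% and 34.1%. In replicate 2 the share of the rising ids so chosen was thus below that of all ids without scaling, and close to it after scaling. The CUR0 libraries that set the place took part in the choice, so these shares describe the table and are not an independent check. The 82 rising ids are those that passed in all 3 libraries.

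Falling ids were in place more often than all ids with each library left out. With a Control library left out, 85.4% to 92.9% were in place in it, against 42.8% to 44.9% of all ids. With a CUR0 library left out the range was 72.5% to 87.0%, against 3.37% to 4.57%. With a CUR50 library left out it was 53.7% to 75.6%, against 18.8% to 32.1%, with the lowest share again in replicate 2 (44 of 82 ids). After median-of-ratios scaling the CUR50 shares were 52.7% to 76.5%, against 32.0% to 33.7% of all ids, and in replicate 2 they were 52.7% and 33.7%. The gap in replicate 2 was thus smaller after scaling. The other 8 libraries chose these ids, so the shares of falling ids too describe the table and are not an independent check.

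**Figure D5:**
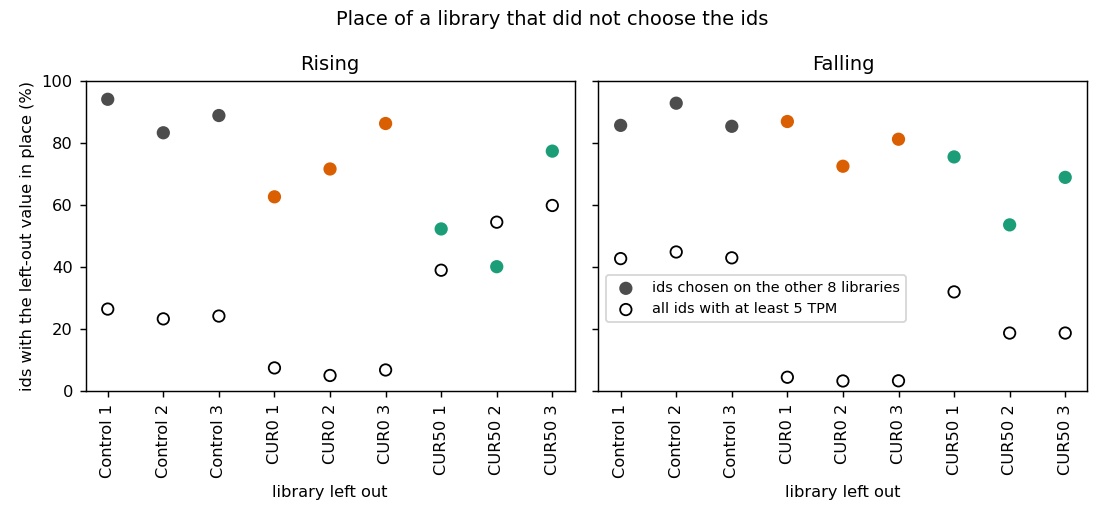
For each library left out (horizontal axis), filled dots give the percent of rising (left) or falling (right) ids chosen on the other 8 libraries whose left-out value was in place, coloured by group (grey Control, orange CUR0, green CUR50), and open circles give the same percent over all ids with at least 5 TPM. The filled dot lies below the open circle once, for rising ids in CUR50 replicate 2 (40.2% and 54.5%).

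The members were also looked up in a limma fit over all 31754 tested ids, in which all 124 were tested. For CUR0 against Control, 43 of 82 rising ids were called upward (limma, Benjamini-Hochberg adjusted p under 0.05), where 2.96% of all tested ids were. For CUR50 against CUR0, 28 were called upward, where 2.57% of all were. Both steps were called in 18 rising ids, where 0.0693% of all tested ids were, and neither in 29. Of the 42 falling ids, 12 were called downward in the first step, where 5.30% of all were, and 16 in the second, where 2.20% of all were. Both steps were called in 7 falling ids, where 0.0535% of all were, and neither in 21. As the rule used these contrasts, nothing is read from the shares. The 18 rising ids are 22.0% of the rising members and 81.8% of the 22 ids called upward in both steps. The 7 falling ids are 16.7% of the falling members and 41.2% of the 17 called downward in both. The calls of both steps were fragile, over all tested ids as well as among the members. In the first step, the 12 falling ids became 7 with either median-of-ratios scaling or quantile normalization, while the 43 rising ids became 52 and 54. When any 1 Control or CUR0 library was left out, the falling ids became 3 to 7 and the rising ids 21 to 31. Of all tested ids, 396 to 553 were then called upward, against 940 with all libraries, and 757 to 1364 downward, against 1682. With only the 6 libraries compared, the first-step calls instead went up, to 51 rising and 28 falling ids. All tested ids then had 1805 upward and 3036 downward calls. Without CUR50 replicate 1 the first-step calls were 49 rising and 25 falling ids, against 1447 upward and 2670 downward over all tested ids. Over all tested ids, the calls of the first step went from 940 upward and 1682 downward to 1425 and 1393 with median-of-ratios scaling, and those of the second from 816 and 700 to 512 and 958. In the second step, 44 members were called with all libraries, and 3 and 5 without CUR0 replicate 2 or 3. They were 14 without CUR50 replicate 3 and 4 with only the 6 libraries compared. The second-step calls over all tested ids went from 1516 to 127 and 133 without CUR0 replicate 2 or 3. Those calls were 404 without CUR50 replicate 3 and 185 with only the 6 libraries compared. The drop was thus not particular to the members.

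Scaling changed which ids were chosen. All limits of the rule were still met under quantile normalization, median-of-ratios scaling and removal of the 10 most abundant ids by 51 of the 82 rising and 26 of the 42 falling ids. The median-of-ratios factors of the libraries ran from 0.883 to 1.12, too narrow to turn a step of 1.5. The rule still chose 48 rising and 16 falling ids each of the 9 times that 1 library was left out, and 37 and 13 ids passed both sets of alternatives.

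Most members were alone in their assembly cluster. Of the rising ids, 33 of 82 (40.2%) shared a cluster with another id, and of the falling ids 20 of 42 (47.6%), against 56.0% of all ids with at least 5 TPM. The 82 rising ids came from 81 clusters, with 1 cluster holding 2 of them, and the 42 falling ids from 42. The rising members' clusters held 28 other ids that reached 1 TPM in 3 or more libraries, and 11 of these (39.3%) were higher in both steps, against 20.8% of all such ids. The falling members' clusters held 25, of which 6 (24.0%) were lower in both steps, against 16.0%. Partners can share reads with a member, so they are not independent of it. Their median log2 ratios were 0.02 and 0.24 for the partners of rising ids and -0.04 and 0.08 for those of falling ids, so the steps of the members were mostly not seen in the other ids of their clusters.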

How the data were processed

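The authors deposited TPM values for 82321 genes in 9 libraries, rounded to 2 decimals; columns sum to between 999997 and 1000003. Per the submitters' processing notes, fastp, Bowtie2, RSEM and DESeq2 were used, with versions, assembly settings, filters and annotation not given in the sources used here. TPM values are shares, so a change in a few abundant genes moves all others. Columns were matched to libraries by title, allowing for 1 letter missing in 2 Control columns. The rule, lists and alternatives were chosen with earlier results of these data known.

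Steps are ratios of group mean TPM + 1. The fit was limma with an intensity trend on log2(TPM + 1), 1 mean per group, all 9 libraries in 1 fit (6 residual degrees of freedom, prior 2.49), for ids that reached 1 TPM in 3 or more libraries, with Benjamini-Hochberg adjustment over 31754 ids. Differences on this scale understate the change of low genes. In each direction, the ids printed are the one with the largest smaller step and the most abundant one. Tools were R 4.3.3, limma 3.58.1, version 1.17.8 of data.table, Python 3.11.15, pandas 2.3.3, numpy 2.4.6 and matplotlib 3.10.9.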

Additional observations from a re-analysis of the deposited data

How the results depend on the processing

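The number of rising and falling ids, 82 and 42, depended on the limits of the rule. They were 41 and 12 with a pseudocount of 5 TPM, 43 and 14 with a minimum of 20 TPM, 34 and 6 with a step of 2, 174 and 119 with a smaller step, and 404 and 106 where neighbouring groups were allowed to overlap. The counts stayed within 1.5 times with a pseudocount of 0.1, no minimum, means of log2(TPM + 1), sums per cluster and the 3 scalings (64 to 81 rising and 43 to 50 falling ids). Leaving out 1 library at a time gave 85 to 214 rising and 42 to 82 falling ids. With fewer libraries in a group, the no-overlap limit is easier to meet, so these counts can rise through the rule itself. Rising ids numbered 126 without CUR0 replicate 1, 149 without CUR50 replicate 1 and 214 without CUR50 replicate 2, which also gave the 82 falling ids. The members called by limma for CUR0 against Control, 55 in all, were 79 with only the 6 libraries compared. They were 25 to 74 when 1 library was left out, and under 36 without any 1 Control or CUR0 library. Those called for CUR50 against CUR0, 44 in all, were 16 without the filter, 23 without the trend, 4 with only the 6 libraries compared and 3 to 55 when 1 library was left out (27, 17 and 24 without Control replicate 1, 2 or 3). With a replicate block they were 7, and 38 in the first step. Over all tested ids, the 2622 first-step calls became 4841 with only the 6 libraries and 1781 with the block. They were 1153 to 4117 with 1 library left out. The 1516 second-step calls became 507 without the filter, 660 without the trend, 185 with only the 6 libraries and 231 with the block. With 1 library left out they were 127 to 3436. Under these settings the members' counts thus went the same way as those of all ids. The labels give no meaning to the replicate numbers, and same-numbered libraries of different groups correlated at -0.04 to 0.09 in their deviations from the group means, so the numbers were not taken to pair the libraries. The cause was not tested. TPM values keep no read number, so no limit from depth can be given.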
